A study of Mus musculus with 8 samples.

Results

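Transcript levels of 8 transcription factors of the hepatocyte, Foxa1, Foxa2, Foxa3, Onecut1, Onecut2, Cebpa, Cebpb and Prox1, were followed in mouse liver from late gestation to adulthood. The members were taken by gene symbol, from a list drawn up when earlier results of these data were known, and all 8 had a row among the 22059 genes of every sample. Nuclear receptors were left out by the same rule. Whole liver of FVB mice (wild-type FVB/NJ in the study's methods) was sampled at embryonic day 18 (E18), at postnatal days 14 (P14) and 28 (P28) and in adults of 3 months, with 2 samples at each of the 4 stages and no other treatment or allele. The samples are described as biological duplicates, and whether a sample was 1 animal or a pool is not given in the sources used here. The study's methods give male mice for adult liver and no sex for the younger stages sequenced here. Poly(A)-selected RNA was sequenced as 100-base read pairs.

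Factors of these families act as a network in the liver. The Foxa proteins open compacted chromatin at liver enhancers and are needed to specify the organ, the one cut factors Onecut1 and Onecut2 guide the choice between hepatocyte and bile duct fates, the CCAAT/enhancer binding proteins Cebpa and Cebpb switch on metabolic and acute-phase genes, and Prox1 is needed for hepatoblasts to migrate and expand. Before birth the liver is also the main site of blood formation, so that its RNA comes from a mixture of hepatoblasts and blood cells.

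The libraries held between 68154675 and 106055723 reads on genes. Levels are given as read counts per 1000000 reads after TMM scaling (CPM), a correction for the few very abundant transcripts that fill a different share of each library. Erythroid markers (9 genes, all at 1 CPM or more at E18) summed to 8983 and 11559 CPM at E18 and to between 76.3 and 85.5 in the 6 later samples, while 8 hepatocyte markers, led by Alb, summed to 53015 and 50097 at E18 and to between 95140 and 272160 later. Granulocyte and monocyte markers (10 genes) summed to 1091 and 1292 at E18 and to 32.7 and 37.7 in adults. In such whole-tissue RNA, fewer cells of a type and less RNA per cell cannot be told apart, and the part of blood cells in the results below was not tested. The E18 samples also held reads of pancreatic genes (15 markers, summed to 259 and 565 CPM), among them 7962 and 14208 reads of Cpa1, which was at 0 to 5 reads in every later sample. Of 4 gut epithelium markers, Cdx2 was at 641 and 304 reads at E18 and 0 or 1 later, and Vil1 at 1018 and 545 and then 24 to 83. Fabp2 went the other way, and Sis was at 10 and 0 reads at E18 and 0 later. The part of these tissues in the levels below was not tested. Xist was at 107378 reads in E18 replicate 1 and 50828 in P14 replicate 2, at 10229 in E18 replicate 2, and at 43 to 78 in the other 5 libraries. Reads of the Y-linked gene Ddx3y were 0 in E18 replicate 1, 513 in P14 replicate 2 and 3178 to 4966 in the other 6, so that 2 libraries held both kinds and the sexes were not balanced over the stages.

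A gene was called changed at an adjusted p below 0.1 in edgeR's quasi-likelihood test over 17081 genes. From E18 to P14 all 8 members were called higher, against 38.2% of all genes tested that were called higher and 39.3% that were called lower. The members' median log2 fold change was 1.81, beside -0.03 over all genes. Between P14 and P28 only Foxa1 and Cebpa were called higher (2 of 8, beside 25.2% of all genes higher and 28.6% lower) and no member was called lower. That share lies near the share of all genes. From P28 to adult Foxa1, Foxa2 and Cebpa were called higher (3 of 8, beside 7.94% of all genes higher and 13.2% lower). Over the whole course, E18 to adult, all 8 were called higher, where 39.5% of all genes were called higher and 43.8% lower, with a median log2 fold change of 2.85 for the members and -0.11 for all genes. A rise of over 3-fold was called for 6 of the 8, against 16.8% of all genes, with Foxa3 and Prox1 below that fold. Successive intervals share the samples of the stage between them. The E18 and adult samples did not overlap for any of the 8 members. The share of all genes without such overlap was not counted, so that this does not set the members apart.

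**Figure D1:**
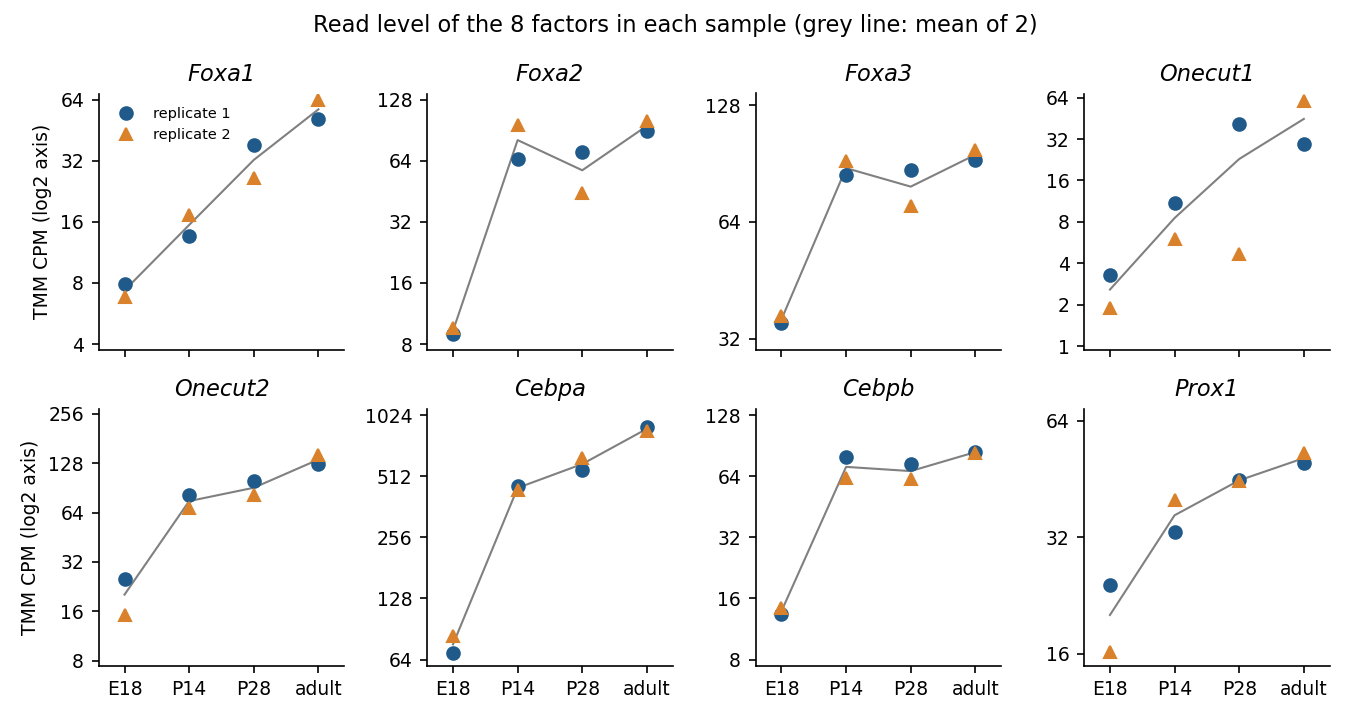
Level of each factor in each of the 8 samples, in TMM-scaled CPM on a log2 axis that differs between panels; circles and triangles are replicates 1 and 2 and the grey line joins the stage means. The adult samples lie above the E18 samples in every panel, and at P28 the 2 samples of Onecut1 lie at 41.2 and 4.64.

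The scaling set the size of the first rise. When counts were divided by library size alone, the median of all genes from E18 to P14 lay at -0.90 on the log2 scale instead of -0.03, and only 5 members were called higher in that interval, without Foxa1, Onecut1 and Prox1. Set against the median of all genes, the members' median was 1.84 higher with TMM and 1.83 higher with library size alone. A change of scaling shifts all genes by nearly the same amount, so that these values had to agree and do not test the rise. For E18 to adult all 8 members were called higher under both scalings, with medians of 2.85 and 2.00.

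Promoter sequences of the members are of interest because the genes rose together and because these factors are known to bind near each other's genes. Of the 8 members, 7 had entries in a RefSeq table of promoters on GRCm38.p6 (250 bases before to 50 bases after a transcription start), with 10 windows in all, and Onecut2 had none. A window of Foxa2 and that of Foxa1 are shown because they were the 2 that held a core motif of the members' own families. The Cebpa window is shown because Cebpa was the most abundant of the 8 transcripts. All run 5′ to 3′ on the gene's strand, at chr2:148046920-148047219 (minus strand), chr12:57546062-57546361 (minus strand) and chr7:35119043-35119342 (plus strand), and capitals mark the motif.
Foxa2: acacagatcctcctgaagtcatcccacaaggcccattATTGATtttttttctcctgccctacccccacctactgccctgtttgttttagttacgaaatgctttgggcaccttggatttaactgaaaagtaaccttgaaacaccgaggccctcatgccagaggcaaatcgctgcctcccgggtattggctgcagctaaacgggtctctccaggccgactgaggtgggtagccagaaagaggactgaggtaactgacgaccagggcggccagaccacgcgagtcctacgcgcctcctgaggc
Foxa1: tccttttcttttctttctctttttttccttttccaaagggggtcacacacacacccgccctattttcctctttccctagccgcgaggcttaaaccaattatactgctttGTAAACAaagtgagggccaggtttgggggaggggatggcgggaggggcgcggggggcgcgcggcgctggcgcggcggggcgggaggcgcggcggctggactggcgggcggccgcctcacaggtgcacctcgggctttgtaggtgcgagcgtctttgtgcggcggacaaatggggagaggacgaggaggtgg
Cebpa: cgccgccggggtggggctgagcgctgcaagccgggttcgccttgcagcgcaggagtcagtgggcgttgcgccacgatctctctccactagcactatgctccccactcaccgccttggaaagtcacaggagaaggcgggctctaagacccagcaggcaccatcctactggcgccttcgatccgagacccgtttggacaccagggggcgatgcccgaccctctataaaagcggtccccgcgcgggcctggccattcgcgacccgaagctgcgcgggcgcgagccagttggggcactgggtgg

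The one cut core ATTGAT started at position -213 of the Foxa2 window shown, counted from its transcription start, and was found on either strand in 7.54% of 32851 promoters. The other Foxa2 windows, at chr2:148045899-148046198 and chr2:148045415-148045714, held no core motif. The forkhead core TGTTTAC stood on the opposite strand of the Foxa1 window, read there as GTAAACA from position -141, and was found in 3.65% of all promoters. Each of these cores was thus in 1 of the 10 windows. The core TTGCNNAA of the CCAAT/enhancer binding proteins was in 0 of the 10 windows and in 10.8% of all promoters. These counts describe the letters in the windows and not binding. The 10 windows had GC contents of 51.7 to 80.7%, the highest that of Cebpb, beside a median of 52.7% over all promoters.

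The Foxa family includes the pioneer factors of liver development. Foxa1 made a smaller part of its log2 rise before P14 than Foxa2 and Foxa3, which lay close to each other with TMM scaling. Foxa1 was at 7.90 and 6.82 CPM in the E18 samples, then 13.6 and 17.3 at P14, 38.2 and 26.4 by P28 and 51.1 and 63.5 as adults. Each stage lay above the one before it with no overlap. The log2 fold changes of Foxa1 in the successive intervals were 1.07 (SE 0.199, edgeR adjusted p = 0.00101), 1.06 (SE 0.196, adjusted p = 0.00235) and 0.83 (SE 0.194, adjusted p = 0.0231), a 7.78-fold rise over the whole course. Of its log2 rise, 36.1% fell before P14, or 9.39% with library size alone. With library size alone the E18 to P14 estimate was 0.20 and was not called, and the RPKM values of those stages overlapped. The P28 to adult call was lost without P28 replicate 2 (0.58) and without adult replicate 2 (0.66).

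Foxa2, which in the adult liver also drives genes of fasting and bile acid metabolism, was at 9.01 and 9.59 CPM at E18, then 65.3 and 96.4 at P14, 70.7 and 44.2 by P28 and 89.2 and 101 as adults. With TMM scaling both P14 samples were over 6 times the E18 level. Its log2 fold change to P14 was 3.12 (SE 0.247, edgeR adjusted p = 3.69e-06), the largest of the 8 members, and 93.1% of its log2 rise fell before P14. With library size alone the fold change of Foxa2 to P14 was smaller, at 2.25 on the log2 scale, and the share before P14 was 89.8%. The P28 samples overlapped those of P14, with a log2 difference of -0.49 (SE 0.227, adjusted p = 0.106). That difference passed the threshold under 4 alternative settings, without P14 replicate 1 (-0.75) and without P28 replicate 1 (-0.87), but it was -0.19 without P14 replicate 2 (adjusted p = 0.581) and -0.20 without P28 replicate 2 (adjusted p = 0.508). From P28 to adult Foxa2 rose by 0.73 (SE 0.227, adjusted p = 0.0664), a call lost without P28 replicate 2 (0.43), without adult replicate 1 (0.81) and without adult replicate 2 (0.63).

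Foxa3, the member of the family with the highest RPKM at E18, was at 35.0 and 36.7 CPM at E18, then 84.5 and 91.7 at P14, 87.3 and 70.5 by P28 and 92.3 and 98.4 as adults. It rose by 1.30 (SE 0.113, edgeR adjusted p = 7.17e-06) to P14 and, over the whole course, by 2.66-fold. Of its log2 rise, 91.9% fell before P14, or 76.1% with library size alone. The later intervals were not called (log2 differences of -0.16 and 0.27, adjusted p = 0.276 and 0.143), and the P14 and P28 samples overlapped.

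Within the family the makeup of the transcripts differed between stages. As shares of the summed RPKM of the 3 genes, a measure per transcript length that does not depend on the scaling between samples, Foxa3 held 72.5% ± 0.804 (SD, n = 2) at E18, then 50.6% ± 5.14 at P14, 51.5% ± 4.0 by P28 and 42.8% ± 1.5 as adults. Foxa2 held 18.0% ± 0.396, 43.8% ± 5.06, 35.2% ± 3.59 and 40.8% ± 0.289 at the same stages. Foxa1 held 9.53% ± 1.2 at E18, a lower 5.63% ± 0.0764 at P14, 13.3% ± 0.409 by P28 and 16.4% ± 1.21 as adults. The E18 and adult samples did not overlap for any of the 3 shares, and the mean share of Foxa1 was lowest at P14, where that of Foxa2 was highest. With 2 samples against 2 an exact permutation test cannot go below p = 0.33, so that these shares stand as a description. They also rest on the lengths used for RPKM. In read counts without length Foxa1 held 14.0% at E18 and 23.1% in adults, and Foxa3 68.3% and 38.6%. Foxa2 then held 38.4% in adults, close to Foxa3. The summed RPKM of the 3 genes was 35.6 ± 0.15 at E18 and 87.6 ± 8.80 in adults.

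**Figure D2:**
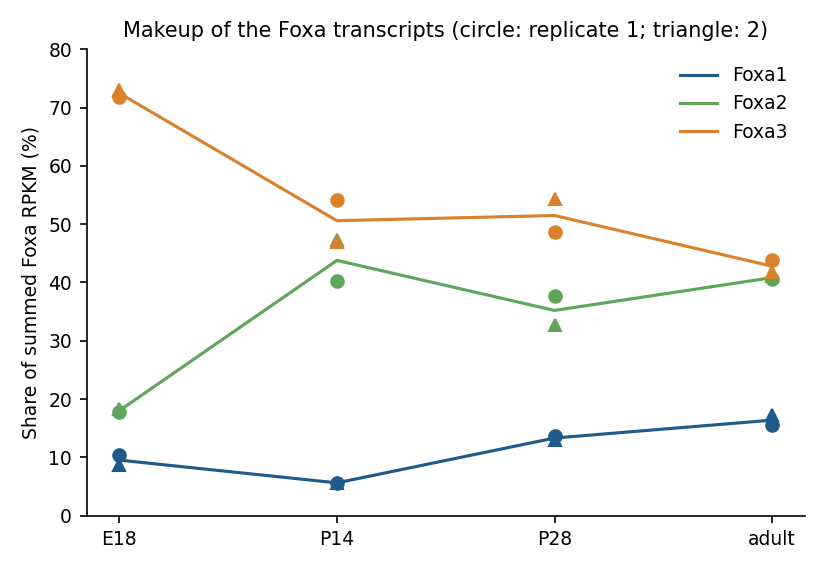
Share of Foxa1, Foxa2 and Foxa3 in their summed RPKM (%, y axis) at each stage; points are the 2 samples and lines join the means. Foxa3 stood at 72.5% at E18 and 42.8% in adults, and Foxa2 at 18.0% and 40.8%.

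The one cut factors were the least abundant of the 8 per transcript length at E18. Onecut1, which restrains bile duct differentiation in the embryo and, in adult liver, works downstream of growth hormone, was at 3.26 and 1.89 CPM at E18, then 11.0 and 6.05 at P14, 41.2 and 4.64 by P28 and 29.4 and 60.2 as adults. In TMM-scaled CPM only the E18 samples lay apart from all the others. The second P28 sample was below both P14 samples and the first lay between the 2 adult samples. In RPKM the second P28 sample, at 2.03, lay between the 2 E18 samples, so that E18 did not lie apart there. Onecut1 rose by 4.12 on the log2 scale (SE 0.884, edgeR adjusted p = 0.00206) from E18 to adult, or 17.3-fold, with the largest standard error of the 8 members. With only those 2 stages fitted the rise was 4.13 (SE 0.392). The estimate ran from 3.51 (without adult replicate 2) to 4.57 with single samples left out, and Cebpa was at 3.56 in the fit without adult replicate 2, above Onecut1. Annotation places the noncoding gene Gm20649 over Onecut1 on the same strand, with no row in the files.

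The 2 P28 samples held 3294 and 332 reads of Onecut1, an 8.87-fold difference in CPM. None of the 13195 genes with a mean of at least 1 CPM differed more between these 2 libraries (0.01 CPM added to each value), and the other 7 members differed between them by 1.01-fold to 1.60-fold. Both libraries had low Xist and high Ddx3y. At E18, P14 and adult the duplicates of Onecut1 differed by 1.73-fold, 1.82-fold and 2.05-fold, each larger than the difference of over 97% of genes. Neither interval that ends or begins at P28 was called (1.43, SE 0.794, adjusted p = 0.174, and 0.97, SE 0.773, adjusted p = 0.458). Without P28 replicate 1 the P14 to P28 estimate turned to -0.88 (adjusted p = 0.223) and P28 to adult became 3.27 (adjusted p = 0.0140), and without P28 replicate 2 the P14 to P28 estimate was 2.27 (adjusted p = 0.00589). The cause of the difference between the duplicates was not tested. The E18 to P14 call (1.72, SE 0.832, adjusted p = 0.0898) was lost under 9 of the alternatives, among them DESeq2 (adjusted p = 0.149). With only those 2 stages fitted, so that the P28 samples did not enter the spread, it was 1.74 (SE 0.345, edgeR adjusted p = 0.00277).

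**Figure D3:**
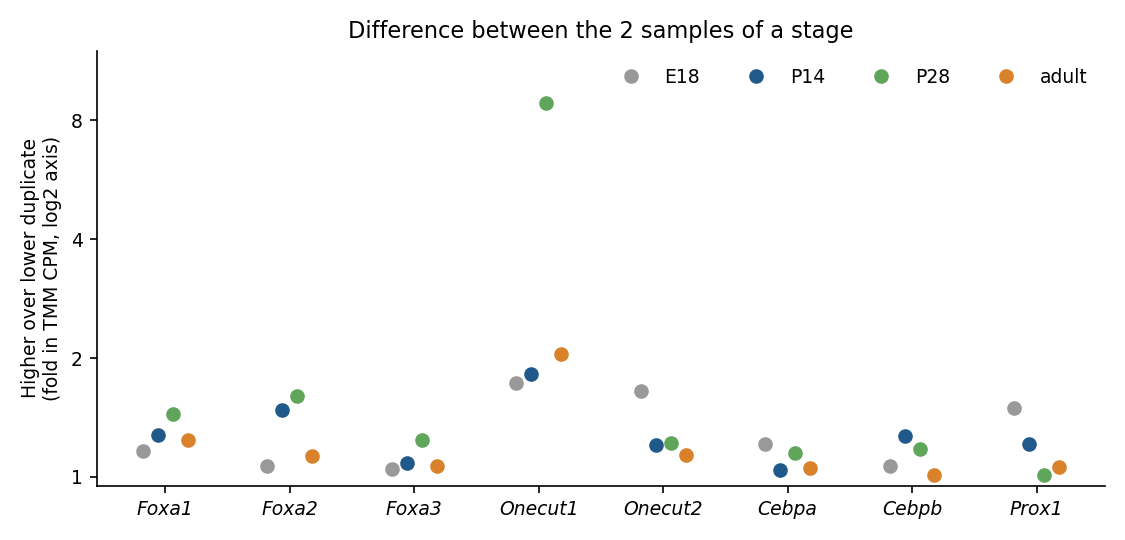
Fold difference in TMM-scaled CPM between the higher and the lower of the 2 samples of each stage (log2 axis), for each of the 8 factors, with stages in colour. Onecut1 at P28 stands at 8.87-fold and every other point lies at or under 2.05-fold.

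Onecut2, which overlaps with Onecut1 in function during liver development, was at 25.2 and 15.2 CPM at E18, then 82.1 and 68.3 at P14, 99.7 and 81.8 by P28 and 126 and 143 as adults. Its samples overlapped only between P14 and P28, and the P28 duplicates differed by 1.22-fold. Onecut2 rose by 1.89 (SE 0.220, edgeR adjusted p = 4.99e-05) to P14 and by 2.73 (SE 0.227, adjusted p = 3.48e-06), or 6.66-fold, over the whole course. From P28 to adult the log2 difference of 0.57 (SE 0.213, adjusted p = 0.112) was not called. It was called by DESeq2 (adjusted p = 0.0355) and in edgeR with a replicate block (adjusted p = 0.0684). The same held with no count filter (adjusted p = 0.0758) and with only those 2 stages fitted (adjusted p = 0.0295). The threshold was also passed without E18 replicate 1, without E18 replicate 2 and without the 2 libraries with the most Xist (0.57 each). Per transcript length the log2 ratio of Onecut1 to Onecut2 was -0.11 ± 0.0451 (SD, n = 2) at E18, -0.32 ± 0.425 at P14 and 1.20 ± 0.60 in adults. At P28 it was 1.60 in one sample and -1.26 in the other. This order rests on the length used for RPKM, 8.90 against 1.21 times that of Cebpb for Onecut2 and Onecut1, and in read counts without length the adult log2 ratio was -1.68.

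Cebpa, which halts proliferation and switches on genes of gluconeogenesis and the urea cycle, was at 68.8 and 83.3 CPM at E18, then 457 and 440 at P14, 546 and 629 by P28 and 899 and 854 as adults. No stages overlapped, and the duplicates differed by at most 1.21-fold. The log2 fold change was 2.56 (SE 0.132, edgeR adjusted p = 2.40e-07) from E18 to P14, 0.39 (SE 0.125, adjusted p = 0.0315) from P14 to P28 and 0.58 (SE 0.125, adjusted p = 0.0174) from P28 to adult. Over the whole course Cebpa rose 11.5-fold (adjusted p = 2.61e-08), and 72.6% of the log2 rise fell before P14. The P14 to P28 call was lost without P14 replicate 1, without P14 replicate 2 and without P28 replicate 2 (0.42, 0.36 and 0.28) and with a model term for the 2 libraries with the most Xist (0.31, adjusted p = 0.101), and P28 to adult without P28 replicate 1 (0.48).

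Cebpb, known for its part in the acute-phase response and in regeneration, was at 13.4 and 14.3 CPM at E18, then 79.6 and 62.6 at P14, 73.4 and 62.2 by P28 and 84.7 and 83.5 as adults. After a rise of 2.36 (SE 0.134, edgeR adjusted p = 4.23e-07) to P14 the samples of P14 and P28 overlapped. The P14 to P28 log2 difference was -0.07 (SE 0.127, adjusted p = 0.685) and that from P28 to adult 0.31 (SE 0.127, adjusted p = 0.143), so that 90.7% of the 6.07-fold rise, on the log2 scale, fell before P14. Cebpb shares its locus with a gene on the opposite strand, Tmem189, which has its own row in the files, and Cebpa with the antisense RNA Gm45091, which has none. Whether strand was used in counting is not given in the sources used here. Per transcript length Cebpa was 2.93 and 3.32 times Cebpb in the E18 samples, 3.27 and 4.0 times at P14, 4.24 and 5.76 times at P28 and 6.05 and 5.82 times in adults. The log2 ratio went from 1.64 ± 0.128 (SD, n = 2) to 2.57 ± 0.0390, and the E18 and adult samples did not overlap.

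Prox1, a homeobox factor that marks hepatocytes from their first appearance in the liver bud and that lymphatic endothelium also expresses, was at 24.2 and 16.2 CPM at E18, then 33.0 and 40.0 at P14, 45.1 and 44.7 by P28 and 49.7 and 52.7 as adults. No neighbouring stages overlapped, but the steps were small. Prox1 rose by 0.85 (SE 0.173, edgeR adjusted p = 0.00168) from E18 to P14 and by 1.34 (SE 0.174, adjusted p = 7.98e-05), or 2.54-fold, from E18 to adult. The latter value was 1.66 without E18 replicate 1 and 1.09 without E18 replicate 2, around the 1.41 of Foxa3. With library size alone the E18 to P14 value was -0.020 (adjusted p = 0.924), and in RPKM the stage means were 7.17 ± 2.12 (SD, n = 2) and 7.13 ± 0.909. The later intervals were not called (0.30, adjusted p = 0.185, and 0.19, adjusted p = 0.514), although P14 to P28 was called when only those 2 stages were fitted (adjusted p = 0.0477), without E18 replicate 1 (adjusted p = 0.0472), without E18 replicate 2 (adjusted p = 0.0483), with the Xist term (0.52, adjusted p = 0.00801) and without the 2 libraries with the most Xist (0.44, adjusted p = 0.0174). Markers of endothelial and lymphatic cells (5 genes, all with reads in every sample) summed to 162 and 138 CPM at E18 and 301 and 276 at P14. The sums were 102 and 104 at P28 and 68.8 and 58.3 in adults. To P14 Stab2 (69.3 and 52.6 to 161 and 151 CPM), Flt4 and Pecam1 rose, while Lyve1 fell (47.1 and 43.1 to 27.2 and 17.0). Pdpn was below 1 CPM in every sample. The part of these cells in the level of Prox1 was not tested. Annotation also places the antisense RNA Prox1os on the opposite strand of Prox1, where reads cannot be told apart without strand.

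**Figure D4:**
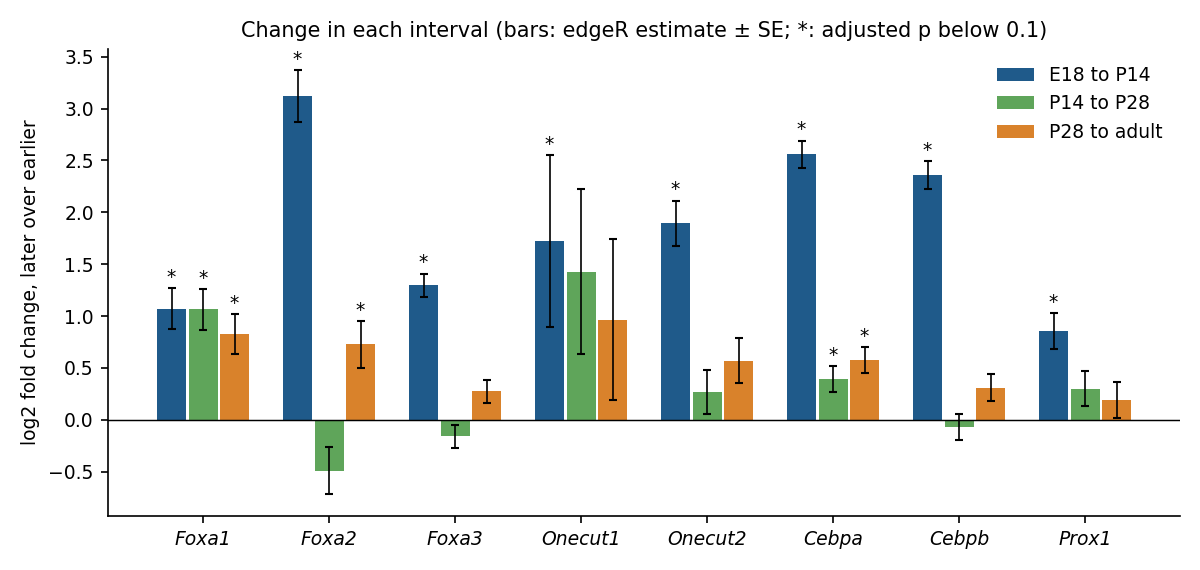
Log2 fold change of each factor in the 3 successive intervals (bars, edgeR estimate; error bars, standard error; asterisk, adjusted p below 0.1). All 8 bars of E18 to P14 carry an asterisk, with 2 of P14 to P28 and 3 of P28 to adult.

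The order of the 8 genes was compared in RPKM, since reads scale with transcript length. Cebpa led at every stage, at 42.2, 137, 176 and 265 RPKM, and moved from rank 1648 to rank 244 among all genes. In adults it was followed by Cebpb (44.7), Foxa3 (37.4) and Foxa2 (35.8), then Onecut1 (19.8) and Foxa1 (14.4), Prox1 (9.91) and Onecut2 (8.06). Foxa3 and Foxa2 overlapped there, as did Onecut1 and Foxa1, and the other neighbours did not. At E18 the order was Cebpa, Foxa3 (25.8), Cebpb (13.5), Prox1 (7.17), Foxa2 (6.40), Foxa1 (3.39), Onecut2 (2.22) and Onecut1 (2.08), with overlap between Prox1 and Foxa2 and between the one cut genes. Prox1 thus stood at place 4 of 8 at E18 and 7 of 8 in adults, and Onecut1 at 8 and 5. At P28 the neighbours from Foxa2 (21.3) through Onecut1 (9.84) and Prox1 (8.57) to Foxa1 (7.98) overlapped in turn.

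**Figure D5:**
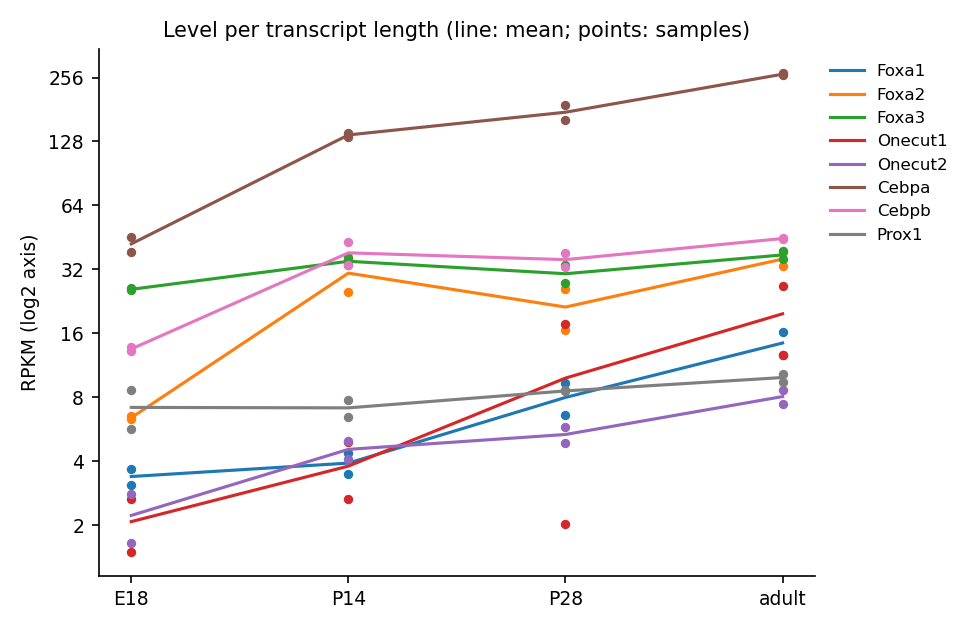
RPKM of the 8 factors at each stage on a log2 axis; lines join the stage means and points are the 2 samples. Cebpa is highest at each stage (42.2 at E18, 265 in adults), and the line of Prox1 is close to level, from 7.17 to 9.91.

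The genes whose course over the 8 samples was nearest to that of each member were sought among 13195 genes, by the root mean square difference of centred log2 CPM. The closest match of all was Foxa3 with Zdhhc18, a palmitoyltransferase, at 0.0865, before Iqsec2 (0.102). Cebpa lay nearest to Cth (0.0887) and Ftcd (0.109), enzymes of cysteine synthesis and histidine breakdown. Onecut2 lay nearest to Gfra1 (0.0919) and Ctif (0.132), Prox1 to Trim3 (0.102) and Sfi1 (0.103), and Cebpb to Kng2 (0.117) and the protease gene Hpn (0.124). Foxa1 lay nearest to the amino acid transporter gene Slc3a1 (0.184) and to Gm9920 (0.201), and Foxa2 to Trib1 (0.257), whose product targets Cebpa protein for degradation, and to Crem (0.277). For Onecut1 the nearest gene, Plcxd2, was at 0.678 and the next, Mir505, at 0.726, so that no gene followed it as closely as the other members were followed. Plcxd2 was at 206 and 106 CPM in the P28 samples.

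Relatives of the members outside the 8 showed no common direction. Of 7 paralogs 3 were called higher from E18 to adult (Cebpg, 1.02, Prox2, 0.32, and Cebpz, 0.24), 1 lower (Cebpe, -8.08, a factor of granulocyte maturation) and 3 were not called (Ddit3, 0.25, Cebpd, 0.10, and Onecut3, -1.58), with a median of 0.24 beside -0.11 for all genes, of which 39.5% were called higher and 43.8% lower. With library size alone the signs of Prox2, Cebpz, Cebpd and Ddit3 turned, 0 paralogs were called higher and 6 lower. Cebpe is itself one of the granulocyte and monocyte markers given above. Of 16 forkhead genes outside the A family 7 were called higher and 7 lower, shares near those of all genes, with a median of 0.06. The largest increases were those of Foxq1 (3.97), Foxo1 (1.30), which insulin signalling restrains, and Foxc1 (1.22), and the largest decreases those of Foxm1 (-6.60), a factor of cell division, Foxf1 (-1.58) and Foxo3 (-1.35). These 6 kept their sign with library size alone, where 2 of the 16 were called higher and 12 lower. Foxc1 rested on few reads, at 0.036 and 0.139 CPM at E18 and 0.223 and 0.181 in adults. It was not called with library size alone (edgeR adjusted p = 0.552).

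Other liver factors that are no nuclear receptors were mostly called higher, like the members. Of 23 genes 21 were called higher and 0 lower from E18 to adult, with a median log2 fold change of 2.14, and Gata6 (-0.16) and Tcf7l2 (-0.22) were not called. With library size alone 2 of the 23 were called lower and Gata4 (0.59) changed sign. The largest increases were those of the clock output gene Dbp (6.84), Zbtb20 (4.85), which represses Afp, and Mlxipl (3.97), the carbohydrate-response factor. From E18 to P14 21 of the 23 were called higher and from P28 to adult 5, beside 38.2% and 7.94% of all genes. Among 11 coregulators and inhibitors 5 were called higher and 3 lower, beside 39.5% and 43.8% of all genes, with a median of 0.39 that was no guide to direction, since 5 of the 11 changed sign with library size alone. Trib1 (2.99), Id3 (2.68) and Id2 (2.44) rose most, and Ep300 (-0.76), Hes1 (-0.45) and Id1 (-0.26) fell, with the same signs under both scalings.

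Genes that textbooks give as bound or controlled by the members in liver had a larger median change than the members. Of 24 such genes 21 were called higher, 2 lower and 1 was not called from E18 to adult, with a median log2 fold change of 3.83. Over all genes 39.5% were called higher and 43.8% lower. Alb (0.59) and Saa3 (0.45) changed sign with library size alone. Tdo2 (13.16), Pck1 (12.66) and Tat (12.41), of tryptophan breakdown, gluconeogenesis and tyrosine breakdown, rose most. Afp, the fetal serum protein, fell by 12.48 and Igfbp1, an insulin-restrained binding protein, fell by 5.59. By interval 22 were called higher and 1 lower from E18 to P14, 8 and 7 from P14 to P28 and 4 and 3 from P28 to adult. The share of all genes called higher also went from 38.2% to 25.2% and 7.94%, and the share called lower was 39.3%, 28.6% and 13.2%. The counts called lower after P14 lay near those shares.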

How the data were processed

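Poly(A) RNA of mouse liver was sequenced in 8 samples, 2 at each of 4 stages named in the labels. The authors deposited, per sample and gene, raw read counts and RPKM values, which were reads per transcript length and per 1000000 reads (1 length per gene in all samples). The build was mm9 per the submitters' processing notes, and the aligner and counter are not given in the sources used here. Counts were analysed with edgeR 4.0.16 (filterByExpr, TMM, 1 coefficient per stage, quasi-likelihood F test, Benjamini-Hochberg over 17081 genes, called at an adjusted p below 0.1), checked on simulated counts. The simulation changed few genes, equally up and down and in the adult samples alone, so that it could not check the scaling between stages. SE is the size of the log2 fold change over the square root of F. RPKM served to compare genes, as ratios within a sample. The members and gene lists were chosen with earlier results of these data known. From each list the genes called from E18 to adult with the 3 largest increases and 3 largest decreases were named, with every paralog, and the 2 nearest genes of a member. Alternatives were other count filters, median-ratio scaling, library size alone, DESeq2 1.42.0, limma 3.58.1 on log2(RPKM + 0.1), fits of 2 stages, a replicate block, each sample left out and, added after seeing the data, a term for the 2 libraries with over 400 CPM of Xist and a fit without them. Replicates with the same number were not treated as paired in the main fit, since the labels give no pairing. Their deviations correlated at -0.23 to 0.084 between stages, which cannot exclude a shared batch. Promoters came from RefSeq (GRCm38.p6), so that no coordinates of the files' build were used, and overlapping genes from GENCODE. A list gene without a row (Foxf1a, Tf) was not tested.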

Additional observations from a re-analysis of the deposited data

How the results depend on the processing

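From E18 to adult all 144 values of the 8 members under 18 alternatives kept their direction and stayed past the threshold. From E18 to P14 131 of 144 did so, 12 kept their direction but missed the threshold and 1 turned (Prox1, -0.020 with library size alone). 5 members were called higher in that interval with library size alone, 5 with limma and 5 when a change of over 3-fold was also asked for, and 7 to 8 without any 1 sample. From P14 to P28 (2 members called higher) the count was 0 over 3-fold and 1 to 3 with single samples left out. In that interval 1 member, Foxa2, was called lower with no count filter, under a minimum of 10 counts per sample, with library size alone and with DESeq2, and 0 to 2 with single samples left out. With single samples left out the estimate of Onecut1 ran from -0.88 (without P28 replicate 1) to 2.27, and that of Cebpb from -0.24 to 0.11 (without P14 replicate 1), with 0.042 without P28 replicate 2. From P28 to adult (3 called higher) the count was 5 with only the 2 stages fitted, 5 without both libraries of high Xist, 0 over 3-fold and 1 to 4 with single samples left out.

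In the lists, from E18 to adult, library size alone gave 0 paralogs higher and 6 lower, 2 other forkhead genes higher and 12 lower, 2 other liver factors lower, and 3 coregulators higher and 6 lower. Limma gave the same numbers (0 and 6, 2 and 12, 2, 3 and 6). Under the minimum of 10 counts 1 paralog was higher and 0 lower, 4 other forkhead genes were higher and 2 other liver factors lower. With no count filter 1 paralog was higher and 2 lower, and with only the 2 stages fitted 2 were lower. Single samples left out gave 1 to 3 paralogs higher and 1 to 2 lower and 0 to 1 other liver factors lower, and 1 of the latter was lower without both libraries of high Xist. The cause of these shifts was not tested beyond the change of scaling itself.

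With the replicate number as a block, 8, 2, 4 and 8 members were called higher in the 4 comparisons, the fourth call from P28 to adult being Onecut2, and no other call of a member changed. Read counts without length raised the log2 ratio of Cebpa to Cebpb to 2.45 at E18 and 3.38 in adults. They turned that of Onecut1 to Onecut2 from 0.17 to -2.71 at P28 and from 1.20 to -1.68 in adults. With 2 samples a stage, the error of each value rests on the spread shared over all stages.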

Other observations

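Genes other than Onecut1 also differed between the 2 P28 samples, and some were picked out here after their values were seen. Socs2 and Cish, feedback inhibitors that growth hormone signalling induces, were at 28.5 and 6.36 CPM and at 96.8 and 24.8 CPM, higher in the sample with more Onecut1 (41.2 and 4.64 CPM). Bcl6, a repressor that the same signal lowers, was at 32.0 and 67.9 CPM, in the other direction. Cyp2b9 (26.0 and 4.71 CPM) and A1bg (195 and 44.4 CPM), liver genes that differ between the sexes in mice, were also higher in the first sample, while Dbp, a gene of the daily clock, was at 42.1 and 141 CPM. In the adult samples Onecut1 (29.4 and 60.2 CPM) and Socs2 (20.3 and 38.8 CPM) were both higher in replicate 2, and Cish was at 116 and 131 CPM. At P14 Onecut1 and Cish went opposite ways (11.0 and 6.05 CPM against 42.9 and 86.0). These values rest on 2 libraries a stage and were not tested.

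The E18 duplicates differed in the one cut genes, in other members and in markers of bile duct and pancreas. Prox1 was higher in replicate 1 (24.2 against 16.2 CPM) and Cebpa lower (68.8 against 83.3 CPM). In E18 replicate 1, where Onecut1 and Onecut2 were higher than in replicate 2 (3.26 against 1.89 and 25.2 against 15.2 CPM), the 5 bile duct markers summed to 56.9 CPM, beside 43.6 in replicate 2, with 4 of the 5 higher in replicate 1 and Spp1 lower (10.93 and 11.98 CPM). The pancreatic markers went the other way, at 259 and 565 CPM. These differences between 2 libraries were not tested.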
